A study of Mus musculus with 12 samples.

Results

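The genes described are 39 ligands, antagonists, receptors and intracellular transducers of the bone morphogenetic protein (BMP) and transforming growth factor beta (TGF-beta) pathways, together with the Id genes that BMP signals switch on. They were taken by gene symbol from the 55414 Ensembl identifiers of a count table, and 37 of the 39 had enough counts to be tested, among 14435 genes tested in all. RNA came from 3T3-L1 cells, a mouse line of fibroblast-like preadipocytes listed in the labels under mesenchymal stem cells, and was sequenced as stranded libraries of polyadenylated transcripts. There were 4 groups of 3 libraries: cells overexpressing FHL2-GFP at day 2, cells with the control construct CTRL-GFP at day 2, FHL2-GFP cells at day 0, and CTRL-GFP cells at day 0. FHL2, built of LIM domains, is known as a transcriptional cofactor. Day 0 was the state after confluence, and the cells then received 170 nM insulin, 1 uM dexamethasone and 0.5 mM isobutylmethylxanthine in serum until day 2, the medium that starts their conversion to fat cells. All 4 groups therefore carried a GFP construct, and no label or header names the promoter that drove it or the way the lines were derived. The labels do not say that the 3 libraries of a group were separate cultures, so each p-value measures only the spread between these libraries, which may be technical.

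BMPs, TGF-betas and activins are secreted dimers that bring together a type I and a type II receptor, both serine/threonine kinases. BMP receptors pass the signal to SMAD1 and SMAD5, TGF-beta and activin receptors pass it to SMAD2 and SMAD3, and SMAD4 joins either set in the nucleus. Antagonists outside the cell hold the ligands back, inhibitory SMADs and ubiquitin ligases stop the signal inside it, and the Id genes are the classical early targets of BMP. In the fat lineage BMP4 and BMP2 are known to commit mesenchymal cells to adipocytes, whereas TGF-beta and activin A are known to hold preadipocytes back from conversion.

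Libraries held 10047708 to 21872139 counts. The day 2 libraries detected 12689 to 16131 genes each, against 17977 to 18811 genes at day 0, and the day 2 libraries varied more, with a biological coefficient of variation of 0.472 against 0.121 at day 0. Control day 2 replicate 3, FHL2 day 2 replicate 1 and FHL2 day 2 replicate 2 had the fewest genes. Fhl2 itself averaged 17.1 ± 6.49 against 16.3 ± 4.03 CPM (counts scaled to a common library size) in FHL2 against control libraries at day 2, and 62.7 ± 4.35 against 61.2 ± 2.40 CPM at day 0 (SD, n = 3 each), so its counts did not show the overexpression, and the lines are named by their labels alone. The 6 adipocyte markers all rose at day 2 in both lines. Their summed level was 120 to 143 CPM in the FHL2 libraries and 160 to 202 CPM in the control libraries at day 2, against 24.4 to 26.1 CPM and 25.6 to 30.9 CPM at day 0. The 7 preadipocyte and fibroblast markers summed to 16675 to 18833 CPM at day 2 and 18986 to 20633 CPM at day 0. Markers of macrophages and blood, endothelium, epithelium and muscle summed to at most 5.13 CPM per list and library, with Adgre1, Hbb-bs, Epcam, Krt18, Myod1 and Myog at 0 in all libraries.

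Levels between genes were compared as CPM per kilobase of the longest annotated transcript. Follistatin-like 1 (Fstl1), a secreted glycoprotein of the follistatin family, was by far the most abundant of the 39 genes, at 534, 551, 428 and 396 CPM per kilobase in FHL2 day 2, control day 2, FHL2 day 0 and control day 0. Id1, Id3, the procollagen protease gene Bmp1, and the receptors Tgfbr2 and Tgfbr3 followed, with averages over the groups between 38.5 and 71.7 CPM per kilobase. The BMP ligands among the 39 were at or near the bottom. Bmp2 had no count in any of the 12 libraries, which allows up to 0.0147 CPM over all of them (3 counts of the total, counting error only). The antagonist noggin (Nog) had 1 count, in a control library at day 0. Bmp4 had 131 counts in all, Fstl3 113, the type II activin receptor gene Acvr2b 245 and the BMP antagonist chordin (Chrd) 257. No difference in those 4 genes was called, and their standard errors were all above 1 on the log2 scale.

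The first question was how the lines differed. Of the 37 genes tested, 1 was called higher and 1 lower in FHL2 than in control at day 2 by edgeR's quasi-likelihood test at an adjusted p under 0.05, where 2.07% of all genes tested were called, 0.72% higher and 1.35% lower. At day 0 none was called, where 0.0485% of all genes were called, 0.0208% higher and 0.0277% lower. By DESeq2, which called 0.61% of all genes at day 0, 1 of the 37 was called higher and 1 lower. The median log2 difference of the 37 genes was 0.02 at day 2 and 0.03 at day 0, beside 0.01 and -0.02 over all genes tested. The 2 genes called at day 2, 5.41% of the 37, are an antagonist of BMP and a target of BMP. Genes that were not called may still differ between the lines.

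Gremlin 1 (Grem1, ENSMUSG00000074934) encodes a secreted protein that binds and blocks BMP2, BMP4 and BMP7. It had 3.61, 2.05 and 3.15 CPM in the libraries labelled FHL2 at day 2, against 16.2, 12.6 and 11.5 CPM in the control libraries at day 2. At day 0 it had 21.3, 15.8 and 21.1 CPM in FHL2 libraries, against 46.8, 46.6 and 36.4 CPM in control libraries. Every FHL2 library was below every control library of the same day, and the lowest day 0 library of the FHL2 line was above 2 of the 3 day 2 libraries of the control line. The difference at day 2 was -2.19 on the log2 scale (SE 0.26, adjusted p = 0.000913), a level 4.57-fold lower in FHL2. At day 0 it was -1.16 (SE 0.23, adjusted p = 0.109), which did not pass. In bulk RNA, fewer cells that transcribe a gene and less of its RNA per cell cannot be told apart.

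Id2 (ENSMUSG00000020644), one of 4 genes for small proteins that bind and silence basic helix-loop-helix transcription factors, went the other way. It had 39.05, 27.8 and 30.8 CPM in FHL2 libraries at day 2, against 16.2, 19.0 and 15.6 CPM in control libraries at day 2. At day 0 it had 44.4, 38.1 and 42.1 CPM in FHL2 libraries, against 31.5, 32.2 and 31.8 CPM in control libraries. Groups did not overlap on either day, and the control libraries of day 0 were tightly spaced. The difference was 0.94 at day 2 (SE 0.17, adjusted p = 0.0118), a 1.92-fold higher level in FHL2, and 0.38 at day 0 (SE 0.16, adjusted p = 1.00).

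Both day 2 calls used a spread shared by all 12 libraries. With only the 6 day 2 libraries in the fit, where 0.304% of genes were called, Grem1 kept its difference of -2.19 and Id2 its difference of 0.94, but neither passed (adjusted p = 0.0598 and 0.18). Over the alternatives tried the adjusted p of Grem1 ran from 8.31e-13 to 0.0598 and that of Id2 from 1.37e-05 to 0.18. Leaving out the 3 libraries of fewest genes left FHL2 with 1 library at day 2, and the differences were then -2.22 and 0.78. With only the 6 day 0 libraries in the fit, where 1.75% of 14044 genes were called, 4 of the 36 genes tested passed at day 0: Grem1 at -1.13 (adjusted p = 0.00251), Id1 at 0.67 (0.00435), Id4 at 0.77 (0.0176) and Tgfb2 at 0.37 (0.0346). Over the alternatives the day 0 adjusted p ran from 0.000669 to 0.652 for Grem1, from 0.000632 to 0.564 for Id1, from 0.0176 to 1.00 for Id4 and from 0.0346 to 1.00 for Tgfb2.

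The other Id genes were described beside Id2 because all 4 leaned the same way at day 0. Id1 had 85.4, 72.8 and 79.0 CPM in FHL2 libraries at day 0, against 51.0, 46.8 and 54.1 CPM in control libraries (log2 difference 0.64, SE 0.12, adjusted p = 0.0922). Id3 had 50.2, 42.3 and 50.5 CPM against 35.9, 34.5 and 40.0 CPM (0.37, SE 0.15, adjusted p = 0.956). Id4 had 13.99, 14.5 and 15.5 CPM against 9.27, 9.07 and 7.85 CPM (0.75, SE 0.23, adjusted p = 0.613). In each of the 4 Id genes all 3 FHL2 libraries of day 0 lay above all 3 control libraries, and none of the 4 was called. Of all genes tested, 21.6% had no overlap between the lines at day 0, in either direction.

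At day 2 the 4 Id genes parted. Id1 had 91.1, 104 and 121 CPM in FHL2 libraries, against 98.6, 89.7 and 104 CPM in control libraries, groups that overlapped (0.12, SE 0.12, adjusted p = 0.659). Id3 had 124, 132 and 156 CPM against 95.9, 112 and 141 CPM, which also overlapped (0.24, SE 0.14, adjusted p = 0.407). Id4 had 21.8, 20.7 and 21.4 CPM against 17.8, 10.7 and 10.8 CPM, without overlap but with 1 control library near the FHL2 level (0.69, SE 0.23, adjusted p = 0.136). The change of the line difference between the days was -0.53 for Id1, 0.56 for Id2, -0.13 for Id3 and -0.05 for Id4, and none of these interactions passed (adjusted p from 0.59 to 1.00).

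**Figure D1:**
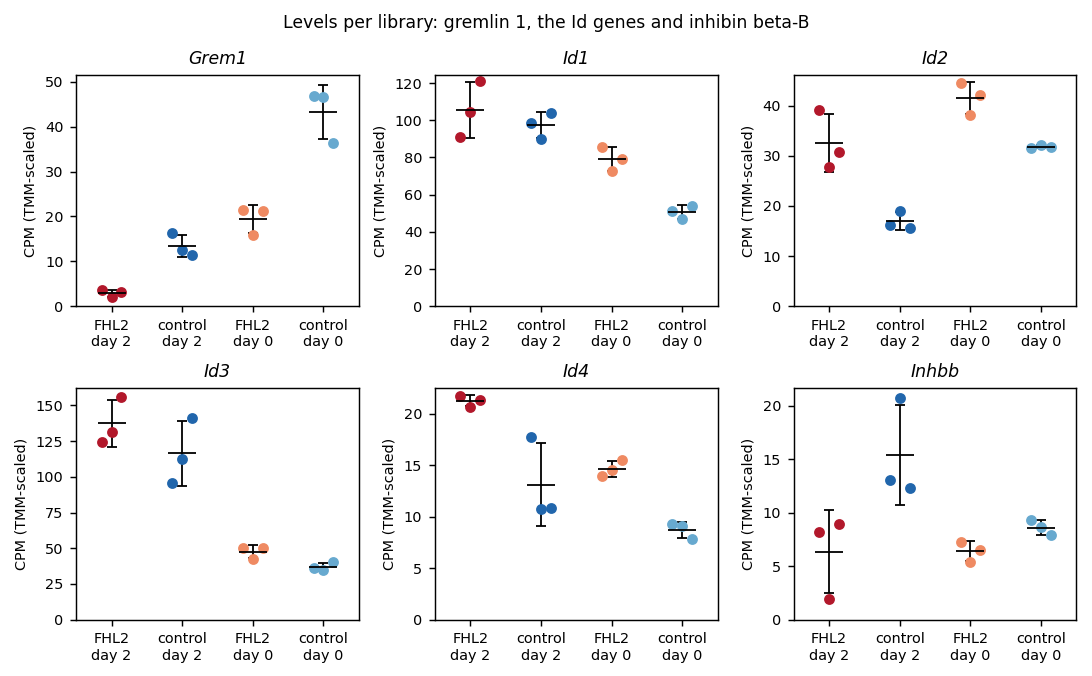
Levels of gremlin 1, the 4 Id genes and inhibin beta-B in each library, in CPM after TMM scaling, for FHL2 day 2, control day 2, FHL2 day 0 and control day 0. Points are libraries, and the bar and whiskers are the mean and SD of 3 libraries. Grem1 lies at 2.05 to 3.61 CPM in FHL2 libraries and 11.5 to 16.2 CPM in control libraries at day 2. The 4 Id genes lie above control in every FHL2 library at day 0, when 21.6% of all genes tested had no overlap in either direction.

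Promoter sequences are shown for the antagonist that was lower and for Id2, Id3 and Id4, 3 of the 4 Id genes that lay higher in FHL2 libraries at day 0. Id1 had no entry among the promoters used and is named only. They are the 250 bases before the annotated start in RefSeq, build GRCm38.p6, in the direction of transcription. Capitals mark GGCGCC, a GC-rich element that BMP-activated SMADs are known to bind, which reads the same on both strands. The windows are Grem1 at chr2:113758649-113758898 on the minus strand, Id2 at chr12:25096093-25096342 on the minus strand, Id3 at chr4:136143572-136143821 on the plus strand and Id4 at chr13:48260866-48261115 on the plus strand.
Grem1: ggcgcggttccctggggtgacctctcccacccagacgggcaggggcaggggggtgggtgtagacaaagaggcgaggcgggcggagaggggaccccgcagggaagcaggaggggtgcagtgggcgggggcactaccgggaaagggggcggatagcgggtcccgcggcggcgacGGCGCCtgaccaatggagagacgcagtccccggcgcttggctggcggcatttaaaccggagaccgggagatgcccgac
Id2: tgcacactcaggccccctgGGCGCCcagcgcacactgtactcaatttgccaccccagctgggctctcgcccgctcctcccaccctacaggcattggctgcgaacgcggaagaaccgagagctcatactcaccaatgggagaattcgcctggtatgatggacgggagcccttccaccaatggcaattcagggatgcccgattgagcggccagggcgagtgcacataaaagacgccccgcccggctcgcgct
Id3: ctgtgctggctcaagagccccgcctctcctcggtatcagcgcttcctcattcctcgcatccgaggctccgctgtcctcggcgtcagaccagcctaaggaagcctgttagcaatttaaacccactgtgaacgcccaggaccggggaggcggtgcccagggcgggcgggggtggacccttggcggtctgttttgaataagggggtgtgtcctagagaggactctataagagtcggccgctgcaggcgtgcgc
Id4: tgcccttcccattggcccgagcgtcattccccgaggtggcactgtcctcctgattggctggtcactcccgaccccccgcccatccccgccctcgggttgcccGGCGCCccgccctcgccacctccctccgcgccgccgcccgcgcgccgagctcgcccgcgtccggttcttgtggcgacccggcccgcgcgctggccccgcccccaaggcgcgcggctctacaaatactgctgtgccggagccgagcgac

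GGCGCC occurred once each in the windows of Grem1, Id2 and Id4, where its first base lay at -78, -231 and -148 from the start, and these letters are not in the window of Id3. Of the 39 genes, 27 had an entry in the promoter table, and 9 of the 27, or 33.3%, held GGCGCC. Over the same 250 bases 9.59% of the 32851 promoters of the table held it. The 27 were counted by gene and the table by promoter entry, and the difference between these shares was not tested. The windows shown have a GC content of 62.8% to 75.6%. The palindrome GTCTAGAC, which SMAD3 and SMAD4 are known to bind and which does not overlap GGCGCC, occurred in none of the 27 and in 0.167% of all promoters.

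Among the remaining genes a lean between the lines was seen in ligands, in a receptor and in inhibitors, without a call. Inhbb, which encodes the beta-B subunit of activin B, had 8.18, 1.91 and 8.96 CPM in FHL2 libraries at day 2, against 13.1, 20.7 and 12.3 CPM in control libraries (log2 difference -1.27, SE 0.44, adjusted p = 0.15), and at day 0 it had 7.27, 5.37 and 6.55 CPM against 9.27, 8.63 and 7.91 CPM (-0.43, adjusted p = 1.00). Its lowest value, in FHL2 day 2 replicate 2, stood apart from the other FHL2 libraries. Tgfb3, the gene for the third TGF-beta ligand, had 55.0, 64.1 and 72.0 CPM in FHL2 libraries at day 2 against 79.4, 74.0 and 74.4 CPM in control libraries, and 89.3, 91.9 and 97.6 CPM against 107, 111 and 117 CPM at day 0, with log2 differences of -0.25 and -0.27 (adjusted p = 0.249 and 1.00). Grem1, Id2, Id4, Inhbb and Tgfb3 were the 5 genes whose libraries did not overlap between the lines on both days. The share of all genes tested without overlap on both days was not computed, so this count has no background beside it.

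Acvr1b, a type I receptor for activin, had 38.3, 54.2 and 45.2 CPM in FHL2 libraries at day 2 against 58.3, 66.8 and 64.8 CPM in control libraries (log2 difference -0.46, adjusted p = 0.136). Smad5 had 53.5, 36.8 and 33.4 CPM against 55.7, 56.8 and 72.2 CPM (-0.58, adjusted p = 0.103). The FHL2 library with the highest Smad5 level was replicate 1, and without it the difference passed (-0.80, adjusted p = 0.0141, with adjusted p from 0.0098 to 0.435 over the alternatives). Bambi, a receptor without a kinase that acts as a decoy, had 4.69, 4.79 and 3.75 CPM in FHL2 libraries at day 0 against 1.76, 2.21 and 2.51 CPM in control libraries (1.03, SE 0.46, adjusted p = 1.00), and at day 2 the lines overlapped.

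In all, 17 of the 37 genes had libraries that did not overlap between the lines at day 0, 11 of them higher and 6 lower in FHL2, where 21.6% of all genes tested had none. At day 2 it was 8 of the 37, 2 higher and 6 lower, where 14.7% of all genes tested had none. At an unadjusted p under 0.05 there were 7 genes at day 0 and 8 at day 2, beside 4.16% and 18.1% of all genes. Of the receptors and SMADs other than Acvr1b and Smad5, none reached an unadjusted p under 0.05 on either day. A p that misses the threshold does not show that levels were the same. The summed adipocyte markers were also lower in FHL2 than in control libraries at day 2, 120 to 143 against 160 to 202 CPM, with 0 of the 6 markers called, and their part in these differences was not tested.

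**Figure D2:**
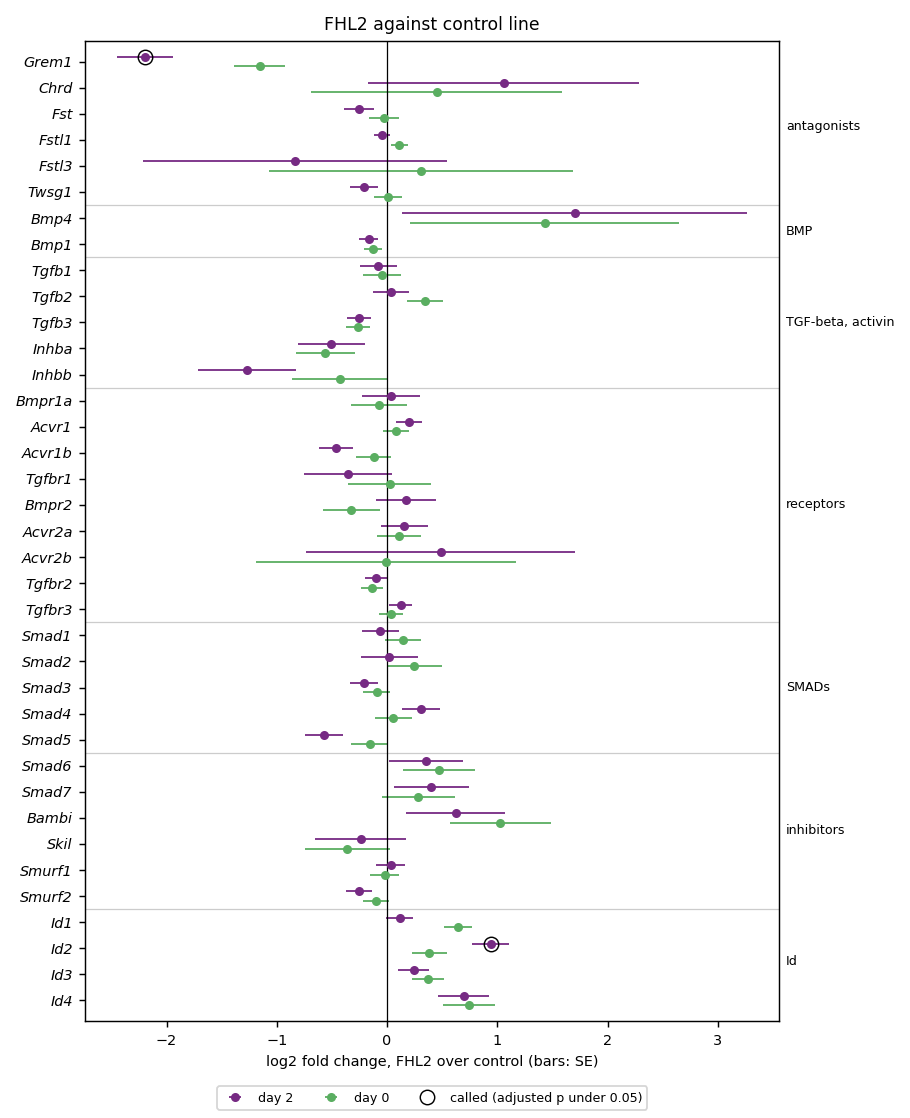
Log2 differences between the lines, FHL2 over control, at day 2 and at day 0 for the 37 genes tested, grouped by role. Points are fitted values, whiskers are 1 SE, and black rings mark called differences. Grem1 lies farthest to the left on both days among the genes with small errors, and all 4 Id genes lie right of 0 on both days.

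No gene of the 37 passed the interaction test, in which the line difference at day 0 is subtracted from that at day 2, and 0.00693% of all genes tested did. Without the 3 libraries named above, when FHL2 has 1 library left at day 2 and it is assumed to vary like the other groups, the type I TGF-beta receptor gene Tgfbr1 passed at -1.43 (adjusted p = 0.044, with adjusted p from 0.044 to 1.00 over the alternatives), where 1.52% of all genes passed. In the same fit, at day 2, Tgfbr1 was called at -1.40 and Id3 at 0.56 (adjusted p = 0.00922 and 0.0385). The 3 genes with an unadjusted p under 0.05 were Grem1, Id1 and Id2, at -1.04, -0.53 and 0.56, where 6.9% of all genes had one.

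The second question was what 2 days of induction did to the pathway. In FHL2 cells 10 genes rose and 14 fell among the 37 tested, where 56% of all genes were called, 25.8% higher and 30.2% lower. In control cells 11 rose and 15 fell, where 57.1% were called, 26.3% higher and 30.8% lower. The median log2 change was -0.41 in FHL2 and -0.56 in control, beside -0.11 and -0.14 over all genes tested. The comparisons share no library, and 23 genes were called in the same direction in both, 10 higher and 13 lower. That is 95.8% of the FHL2 calls and 88.5% of the control calls. The same share over all genes tested was not computed, so these shares are not read as particular to the 37 genes. Fst was called in FHL2 alone, and Smad4, Id2 and Id4 in control alone, and the interaction of none of the 4 passed. Over all genes, day 2 and day 0 libraries did not overlap in 66.2% in FHL2 and in 68.7% in control, and an unadjusted p under 0.05 was reached by 60.2% and 61.3%.

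These changes went with base composition, which is therefore given first. Across the whole table, AT-rich transcripts had lower levels at day 2 and GC-rich ones higher: in 5 classes of equal size by GC content of the transcript, the median log2 change of all genes ran from -1.63 in the lowest class to 0.69 in the highest in FHL2, and from -1.79 to 0.73 in control. Of the 37 genes, 16 fell in the lowest 2 classes. In FHL2, 12 of these 16 were called lower and 0 higher, and of the 21 in the upper 3 classes 10 were called higher and 2 lower. Of all genes tested, 67.002% and 46.1% were called lower in those lowest 2 classes in FHL2, and 22.4%, 41.1% and 52.8% were called higher in the upper 3. In control the same classes had 12 lower and 1 higher, and 10 higher and 3 lower, where 71.2% and 46.5% of all genes were called lower and 22.6%, 42.6% and 54.96% higher. Each change was therefore also fitted with a library-specific smooth correction along GC content, and with another along both GC content and length. Over all genes tested, the fit with GC content called 41.3% in FHL2 and 40.7% in control, and with length added 39.9% and 40.5%. Of the calls between days, 13 of 24 in FHL2 and 15 of 26 in control held in the same direction under both corrections. The share of all calls that held in this way was not computed. The value after correction is given below where a call ended or turned. The part of base composition in the changes was not tested further.

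**Figure D3:**
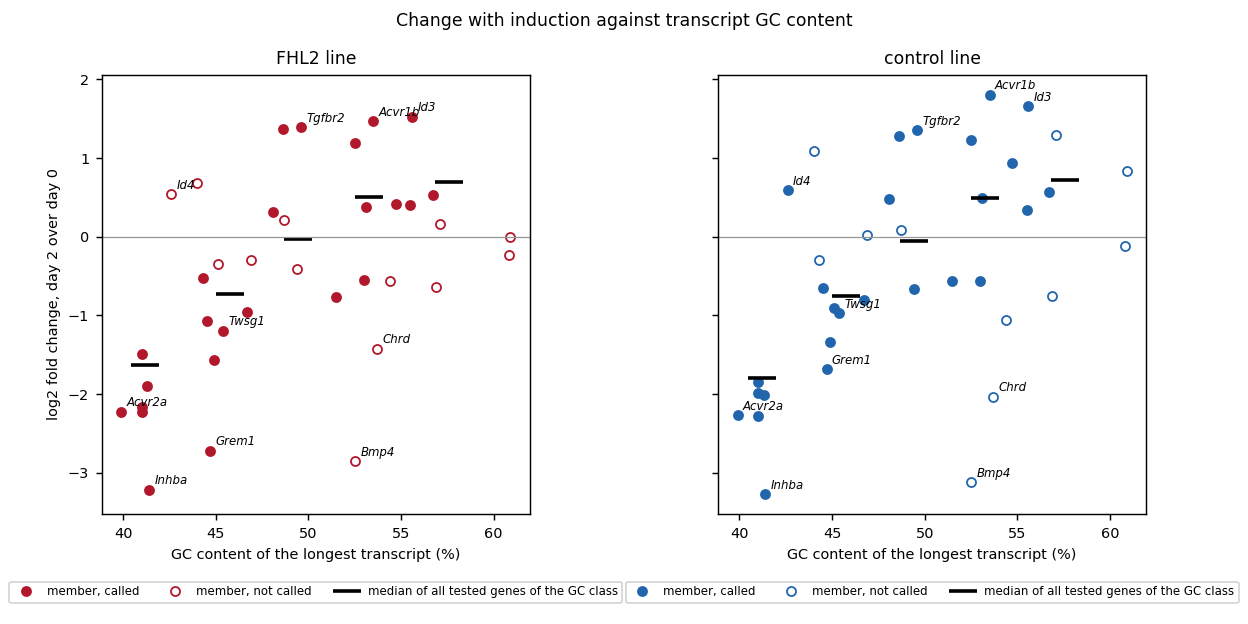
Log2 change from induction, day 2 over day 0, of the 37 genes against the GC content of their transcripts in percent, in FHL2 and in control cells. Filled points are called genes, open points are not called, and black bars are the medians of all genes tested in 5 classes of GC content, from -1.63 to 0.69 in FHL2 and from -1.79 to 0.73 in control. Inhba and Grem1 lie below the bar of their class, and Tgfbr2 and Id4 lie above it.

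Antagonists outside the cell fell or held while Fstl1 rose. Grem1 fell by 2.72 on the log2 scale in FHL2 (SE 0.26, adjusted p = 7.6e-07) and by 1.68 in control (SE 0.24, adjusted p = 2.9e-05), with the library values given above, and in each line all day 2 libraries lay below all day 0 libraries. Twisted gastrulation (Twsg1), which binds BMPs together with chordin, had 89.3, 63.7 and 78.6 CPM at day 2 against 176, 183 and 169.8 CPM at day 0 in FHL2, and 91.6, 76.4 and 99.97 CPM against 182, 176 and 167 CPM in control. It fell in both lines, by 1.19 and 0.97 (adjusted p = 2.34e-06 and 1.46e-05). Fstl1 had 2075, 2063 and 1931 CPM at day 2 against 1559, 1605 and 1698 CPM at day 0 in FHL2, and 2027, 2300 and 1941 CPM against 1509, 1449 and 1540 CPM in control. It rose by a small amount without overlap, at 0.32 and 0.48 (adjusted p = 0.00226 and 8.04e-05). Grem1, Twsg1 and Fstl1 held under both corrections.

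Follistatin (Fst), which binds activins almost irreversibly, had 33.1, 41.1 and 45.4 CPM at day 2 against 60.7, 51.9 and 58.9 CPM at day 0 in FHL2, and 49.5, 47.5 and 45.7 CPM against 64.0, 54.9 and 56.2 CPM in control. The FHL2 change of -0.52 passed (adjusted p = 0.00536) and the control change of -0.30 did not (adjusted p = 0.082). After correction for GC content the direction turned, to 0.29 in FHL2 (adjusted p = 0.115) and 0.56 in control (adjusted p = 0.00512).

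Of the ligands, Inhba, the gene for the activin A subunit, fell in both lines. Inhba had 4.23, 5.88 and 5.15 CPM at day 2 against 59.5, 45.9 and 36.5 CPM at day 0 in FHL2, and 8.02, 4.63 and 9.20 CPM against 91.9, 70.0 and 47.4 CPM in control. Day 2 libraries lay far below day 0 libraries in both lines, and the day 0 libraries themselves were widely spread. It fell by 3.22 in FHL2 (SE 0.30, adjusted p = 7.71e-07), a 9.29-fold lower level, and by 3.27 in control (SE 0.30, adjusted p = 5.98e-07). After both corrections it was still called lower, with changes of -1.92 and -1.67 in FHL2 and of -1.85 and -1.65 in control.

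The TGF-beta ligands moved in opposite directions. Tgfb1 had 52.5, 64.5 and 50.2 CPM at day 2 against 24.1, 21.7 and 27.0 CPM at day 0 in FHL2, and 60.4, 58.3 and 57.7 CPM against 26.2, 19.3 and 29.6 CPM in control. It rose in both lines, 2.29-fold and 2.35-fold (adjusted p = 3.5e-05 and 2.66e-05). Tgfb3, with the values given above, fell by 0.54 and 0.56 (adjusted p = 0.000768 and 0.000616), and its change was larger after correction for GC content, at -1.14 and -1.19. Both ligands held under both corrections. Tgfb2 was not called in either line, at -0.29 in FHL2 and 0.02 in control.

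Of Bmp2 and Bmp4, the BMP ligands among the 39 genes, Bmp2 had no counts and Bmp4 was not called. Bmp4 had 0, 0 and 0.545 CPM at day 2 against 1.27, 0.83 and 2.09 CPM at day 0 in FHL2, and 0, 0.147 and 0 CPM against 0.497, 0.432 and 0.613 CPM in control, which is 9 against 91 counts and 2 against 29 counts. The day 2 libraries lay below the day 0 libraries in both lines, and neither change passed (adjusted p = 0.0805 and 0.0942). Of the 9 FHL2 counts at day 2 all were in replicate 3, and without it the fall passed (adjusted p = 0.00518, with adjusted p from 0.00518 to 0.297 over the alternatives). Bmp1, which despite its name encodes a protease that cuts procollagen and chordin, had 339, 309.6 and 319 CPM at day 2 against 225, 228 and 215 CPM at day 0 in FHL2, and 389, 332 and 366 CPM against 233, 243 and 256 CPM in control. It rose by 0.53 and 0.57 (adjusted p = 7.31e-05 and 3.83e-05), but after correction for GC content it was called lower, at -0.32 in each line.

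Receptors split into a set that rose and a set that fell. The type II TGF-beta receptor gene Tgfbr2 had 608, 550.2 and 562 CPM at day 2 against 206, 227 and 221 CPM at day 0 in FHL2, and 620.4, 699 and 521 CPM against 237, 234 and 247 CPM in control. The coreceptor gene Tgfbr3, whose product betaglycan presents TGF-beta and inhibin, had 411, 353 and 285 CPM against 136, 134 and 135 CPM in FHL2, and 325, 325 and 314 CPM against 136, 128 and 132 CPM in control. Acvr1b had 38.3, 54.2 and 45.2 CPM against 15.3, 17.3 and 17.2 CPM in FHL2, and 58.3, 66.8 and 64.8 CPM against 17.7, 16.5 and 19.99 CPM in control. All 3 rose in both lines with no overlap: on the log2 scale Tgfbr2 by 1.40 and 1.36, Tgfbr3 by 1.37 and 1.29, and Acvr1b by 1.47 and 1.81 in FHL2 and control (adjusted p from 6.26e-08 to 3.05e-06). They were still called higher under both corrections, Tgfbr2 at 1.21 and 1.65 in FHL2 and 1.13 and 1.48 in control.

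The receptors that fell had transcripts of low GC content. Bmpr1a, the type I receptor of BMP2 and BMP4, had 56.9, 25.01 and 26.2 CPM at day 2 against 137, 129 and 137 CPM at day 0 in FHL2, and 43.2, 27.3 and 34.8 CPM against 166, 142 and 116 CPM in control. Acvr2a, a type II receptor shared by activins and BMPs, had 18.6, 20.8 and 13.1 CPM against 90.0, 77.2 and 76.9 CPM in FHL2, and 15.4, 12.7 and 19.0 CPM against 90.4, 77.7 and 58.4 CPM in control. Acvr2a shares 446 exonic bases with Orc4 on the opposite strand, and reads there cannot be assigned with certainty, since no label or header states how the counting treated strand. The type I receptor gene Tgfbr1 had 18.4, 5.60 and 5.81 CPM against 47.4, 44.8 and 47.0 CPM in FHL2, and 17.8, 12.2 and 7.79 CPM against 53.9, 48.5 and 34.4 CPM in control. Replicate 1 was the highest day 2 library in Tgfbr1 in both lines, and no day 2 library reached a day 0 level in any of these genes.

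Bmpr2, the type II BMP receptor, had 37.9, 25.6 and 14.7 CPM at day 2 against 77.5, 70.9 and 71.3 CPM at day 0 in FHL2, and 27.3, 21.4 and 20.6 CPM against 114, 92.3 and 68.6 CPM in control. All 4 fell in FHL2 and in control, Bmpr1a at -1.90 and -2.01, Acvr2a at -2.22 and -2.27, Tgfbr1 at -2.22 and -1.84, and Bmpr2 at -1.49 and -1.99 (adjusted p from 6.82e-07 to 0.00116). Their transcripts have a GC content of 39.9% to 41.3%, the class whose median change was -1.63 in FHL2 and -1.79 in control. Under both corrections only Acvr2a of these 4 remained called, at -0.77 and -0.60 in FHL2 and -0.65 and -0.51 in control. Bmpr1a was called after correction for GC content, at -0.64 and -0.60, and not with length added. Tgfbr1 was called after correction for GC content in FHL2, at -0.93 (adjusted p = 0.0423), and not in control, at -0.40 (adjusted p = 0.377). The BMP and activin receptor gene Acvr1 was not called, at 0.21 and 0.09 (in FHL2 it passed without day 2 replicate 3, at 0.34, adjusted p = 0.0174), and Acvr2b was too low to judge.

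**Figure D4:**
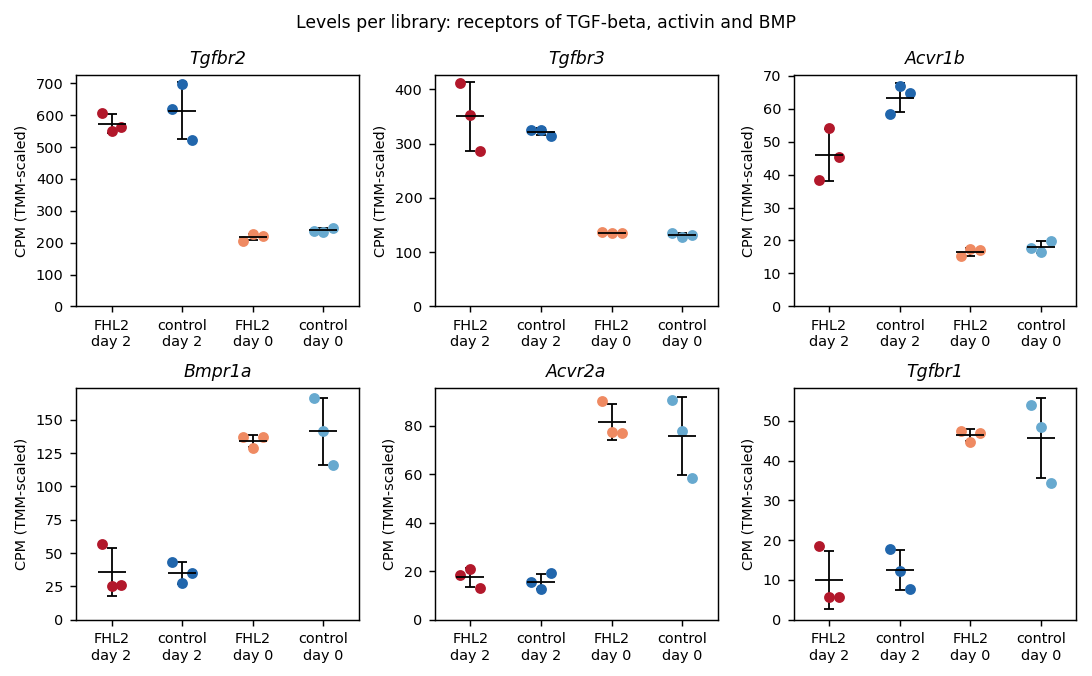
Levels of 6 receptor genes in each library, in CPM after TMM scaling, for FHL2 day 2, control day 2, FHL2 day 0 and control day 0. Points are libraries, with the mean and SD of 3 libraries. Tgfbr2, Tgfbr3 and Acvr1b lie above their day 0 libraries in all day 2 libraries, and Bmpr1a, Acvr2a and Tgfbr1 lie below.

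The SMADs that carry the signal mostly fell, with Smad3 as the exception. Smad2, a carrier of TGF-beta and activin signals, had 17.3, 29.0 and 24.4 CPM at day 2 against 66.6, 68.7 and 74.3 CPM at day 0 in FHL2, and 26.3, 30.4 and 12.4 CPM against 59.1, 60.4 and 56.9 CPM in control. It fell by 1.57 and 1.34 (adjusted p = 0.000117 and 0.000438). Smad1, a carrier of BMP signals, had 27.6, 25.7 and 22.9 CPM against 39.6, 46.4 and 43.8 CPM in FHL2, and 22.8, 32.0 and 24.6 CPM against 43.4, 36.3 and 37.5 CPM in control, a fall of 0.77 and 0.56 (adjusted p = 0.00118 and 0.00973). In both genes all day 2 libraries lay below all day 0 libraries. The control call of Smad1 was lost without day 2 replicate 1 (-0.44, adjusted p = 0.0619). Smad1 held under both corrections at -1.21 and -1.17 in FHL2 and -1.04 and -1.02 in control, whereas Smad2 held only for GC content and only in FHL2, at -0.88 (adjusted p = 0.0097).

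Smad4, the common partner, had 74.4, 67.02 and 59.5 CPM at day 2 against 89.4, 90.8 and 86.0 CPM at day 0 in FHL2, and 38.9, 71.6 and 51.7 CPM against 89.1, 84.2 and 82.7 CPM in control. The control change of -0.66 passed (adjusted p = 0.00471) and the FHL2 change of -0.41 did not (adjusted p = 0.0565), and after correction for GC content both passed, at -0.57 in FHL2 and -0.86 in control. Smad5, with day 2 values given above, had 84.1, 92.6 and 84.1 CPM at day 0 in FHL2 and 112, 91.2 and 87.4 CPM at day 0 in control. It fell by 1.08 and 0.66 (adjusted p = 0.000104 and 0.00455), calls that ended after correction for GC content, at -0.32 in FHL2 and 0.16 in control. Smad3 had 133, 155 and 127 CPM at day 2 against 102, 109 and 107 CPM at day 0 in FHL2, and 186, 157 and 135 CPM against 115, 102 and 122 CPM in control. It rose by 0.38 and 0.50 (adjusted p = 0.0161 and 0.00332), and neither call held after correction for GC content (-0.23 and -0.15). In FHL2 the Smad3 call was also lost without day 0 replicate 1 and without day 2 replicate 2 (adjusted p = 0.0612 and 0.0975).

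Inhibitors inside the cell divided by gene. Skil, which encodes SnoN, a corepressor of SMAD-driven transcription, had 8.53, 2.62 and 3.09 CPM at day 2 against 24.5, 22.1 and 17.1 CPM at day 0 in FHL2, and 8.37, 4.26 and 4.003 CPM against 29.9, 29.0 and 22.7 CPM in control. It fell by 2.16 and 2.28 (adjusted p = 0.000454 and 0.000283), calls lost after correction for GC content (-0.86 and -0.85, adjusted p = 0.0686 and 0.0725). Smurf2, a ubiquitin ligase that marks SMADs and receptors for degradation, had 35.0, 37.8 and 33.4 CPM against 68.9, 70.9 and 65.8 CPM in FHL2, and 42.6, 37.7 and 46.5 CPM against 76.0, 73.6 and 71.0 CPM in control. It fell by 0.95 and 0.80 (adjusted p = 1.01e-05 and 4.84e-05) and held under both corrections, with every day 2 library below every day 0 library.

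Its relative Smurf1 had 123, 121 and 87.4 CPM at day 2 against 77.0, 90.2 and 84.3 CPM at day 0 in FHL2, groups that overlapped, and 101, 113 and 109 CPM against 79.4, 81.8 and 93.8 CPM in control. The rises of 0.40 and 0.34 (adjusted p = 0.0193 and 0.0387) turned to called falls after correction for GC content, at -0.40 and -0.48. The Smurf1 calls were also lost without any of 4 FHL2 libraries in turn (day 0 replicates 1 and 3, day 2 replicates 1 and 2, adjusted p from 0.0545 to 0.0874) and without any of 3 control libraries (day 0 replicates 1 and 2, day 2 replicate 2, adjusted p from 0.0869 to 0.144). The inhibitory SMAD genes Smad6 and Smad7, and Bambi, were not called in either line. The values were -0.23 and -0.11 for Smad6, -0.63 and -0.75 for Smad7, and 0.68 and 1.09 for Bambi, in FHL2 and control. In control Smad7 passed without day 2 replicate 2 (adjusted p = 0.0401) and Bambi without day 2 replicate 1 (adjusted p = 0.0105). After both corrections all 3 were called in both lines, Smad6 and Smad7 lower and Bambi higher (adjusted p from 0.00181 to 0.016), at mean levels of 2.16 to 13.5 CPM per group. The corrected fits called 39.9% to 41.3% of all genes tested.

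Of the Id genes, Id1 and Id3 rose in both lines before correction. With the values given above, Id3 was higher in all day 2 libraries than in any day 0 library of the same line, 2.88-fold in FHL2 and 3.16-fold in control (adjusted p = 9.76e-07 and 4.74e-07), and it held under both corrections at 0.73 and 0.46 in FHL2 and 0.82 and 0.63 in control. Id1 rose 1.33-fold in FHL2 and 1.92-fold in control (adjusted p = 0.00995 and 1.63e-05). After correction for GC content the FHL2 change of Id1 was called in the other direction, at -0.33 (adjusted p = 0.0352), and the control change was 0.16 (adjusted p = 0.301). The FHL2 call of Id1 was also lost without day 0 replicate 2 (adjusted p = 0.0567). Id2 fell by 0.91 in control (adjusted p = 0.000307), a call lost after correction for GC content (-0.24, adjusted p = 0.234), and stood at -0.35 in FHL2 (adjusted p = 0.0788), a change that passed without day 2 replicate 1 (-0.48, adjusted p = 0.0247). Id4 rose by 0.59 in control (adjusted p = 0.0456) and stood at 0.54 in FHL2 (adjusted p = 0.0621), and after correction for GC content it was called higher in both, at 1.64 in FHL2 and 1.78 in control. The control call of Id4 was lost without any of 4 libraries in turn (adjusted p from 0.0852 to 0.242 without day 0 replicates 1, 2 or 3 or day 2 replicate 1).

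**Figure D5:**
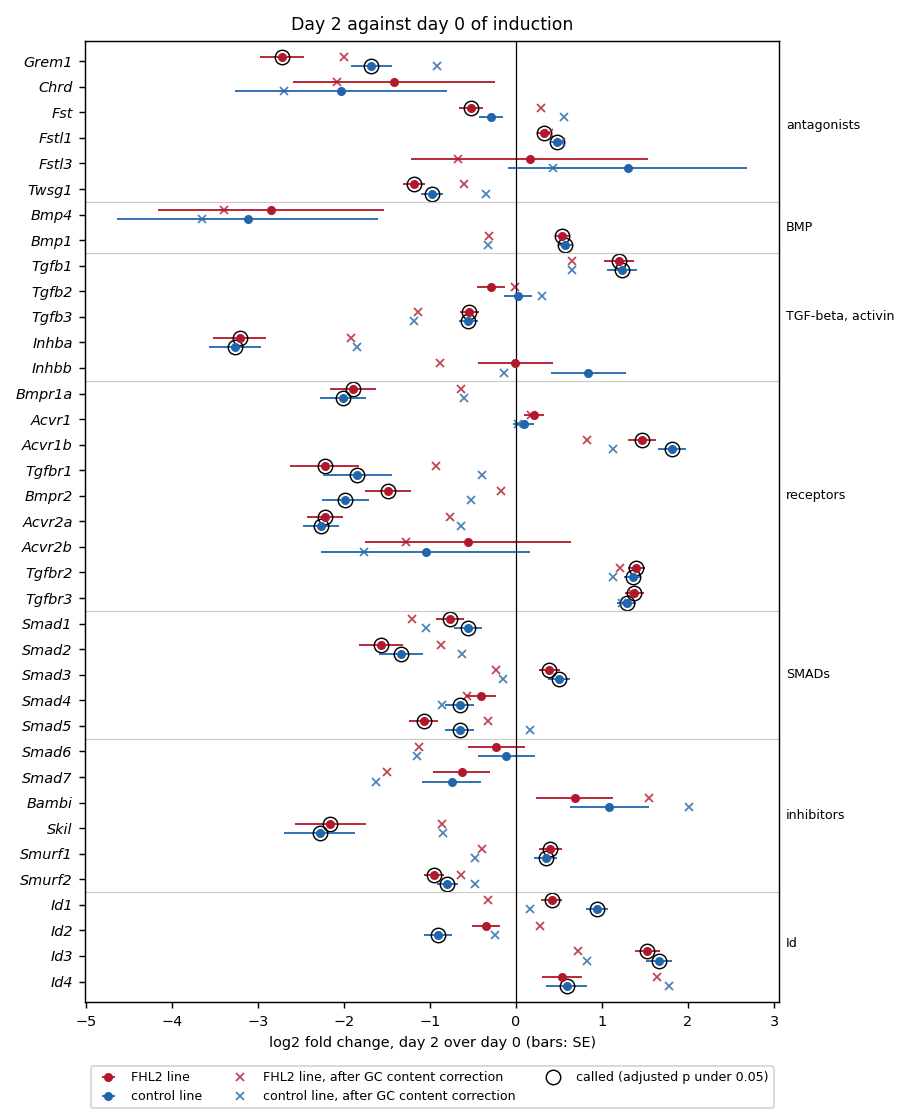
Log2 changes with induction, day 2 over day 0, in FHL2 and in control cells for the 37 genes tested, grouped by role, with the values after correction for GC content as crosses. Whiskers are 1 SE, and black rings mark called changes. Inhba falls by 3.22 and 3.27 and stays below 0 after correction, whereas Bmp1 and Smurf1 cross 0.

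Of 71 other genes of the pathway, 51 could be tested. Between the lines 4 were called higher and 4 lower in FHL2 at day 2, beside the background of 0.72% and 1.35%, and none at day 0. Of the 7 preadipocyte and fibroblast markers, which include Col1a1, 3 were also called between the lines at day 2, 2 higher and 1 lower. Thy1, called higher at day 2, was also called higher at day 0 (log2 difference 0.56, adjusted p = 0.01). The part of these markers in the differences between the lines was not tested. The 8 TGF-beta response genes tested supplied 5 of the 8 day 2 calls among the 51 genes, in both directions. The contractile genes Acta2 (204 ± 41.1 against 126 ± 20.04 CPM in FHL2 against control, SD, n = 3 each, log2 difference 0.70, adjusted p = 0.0292) and Tagln (7.73 ± 1.30 against 1.55 ± 0.836 CPM, 2.33, adjusted p = 0.00354) were higher, as were the protease inhibitor gene Timp1 (0.66, adjusted p = 0.0226) and decorin, Dcn, a matrix proteoglycan that binds TGF-beta (642 ± 35.1 against 396 ± 59.1 CPM, 0.70, adjusted p = 0.00651). Tgfbi and Col1a1 were lower, at -0.42 and -0.40 (adjusted p = 0.0474 and 0.0226). So were Pmepa1, a TGF-beta target that restrains SMAD signalling (-0.73, adjusted p = 0.0239), and Ltbp1, which tethers latent TGF-beta to the matrix (-0.62, adjusted p = 0.0118). With only the 6 libraries of a day in the fit, 1 of these 8 genes was still called at day 2, and 7 of the 50 tested were called higher and 1 lower at day 0, where that fit called 0.304% of all genes at day 2 and 1.75% at day 0.

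The 5 BMP response genes tested were looked at after their values were seen, beside the Id genes. None was called between the lines on either day. At day 0 all 5 had libraries that did not overlap, 4 of them higher in FHL2, where 21.6% of all genes tested did not overlap. Hey1 had 3.13, 3.22 and 3.84 CPM in FHL2 libraries against 0.859, 0.971 and 0.92 CPM in control libraries (log2 difference 1.88, adjusted p = 0.216). Msx1 was at 0.82 and Atoh8 at 0.73 (adjusted p = 0.559 and 0.425), Zfp423 was at 0.34, and Runx2 lay lower at -0.10. At day 2 the libraries of all 5 overlapped, where 14.7% of all genes tested did not overlap.

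With induction 17 of the 51 rose and 17 fell in FHL2, and 22 rose and 16 fell in control, beside backgrounds of 25.8% and 30.2%, and 26.3% and 30.8%. Among those averaging at least 5 CPM, the largest called rises in FHL2 were those of Nbl1, a BMP antagonist of the DAN family (53.7 ± 7.24 against 5.96 ± 0.352 CPM at day 2 against day 0, log2 change 3.17), Hey1 (1.85) and Atoh8 (1.68). In control they were Smoc1, Nbl1 and Atoh8, at 2.90, 2.57 and 2.41. The largest called falls in the same range were those of Thbs1, an activator of latent TGF-beta, of Tagln and of the ubiquitin ligase gene Wwp1 in FHL2 (-3.14, -2.86 and -2.49), and of Tagln, the deubiquitinase gene Usp15 and Thbs1 in control (-4.33, -2.92 and -2.72). Of the 3 other ligand genes tested, 1 was called with induction, Bmp5, a BMP ligand, which is named after its values were seen. Bmp5 averaged 4.51 ± 3.55 CPM at day 2 against 0.747 ± 0.38 CPM at day 0 in FHL2, and 7.19 ± 0.906 CPM against 1.10 ± 0.371 CPM in control (SD, n = 3 each). Its day 2 libraries all lay above its day 0 libraries, and it rose by 2.58 in FHL2 and 2.70 in control (adjusted p = 0.00344 and 0.00232). None of the 51 passed the interaction test.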

How the data were processed

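RNA of 12 libraries, 3 in each of 4 groups named by the labels, was measured as read counts per Ensembl gene, deposited by the authors as raw counts without normalization. Per the submitters' processing notes, the tools include HTSeq 0.11.0, HISAT2 2.2.1, limma, Trimmomatic 0.39, FastQC 0.11.9 and R 4.1.0, with the build GRCm39 (mm39). Settings, annotation and treatment of strand: not given in the sources used here.

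From the counts, edgeR 4.0.16 in R 4.3.3 fitted all 12 libraries with 1 mean per group, after TMM scaling and removal of low genes by filterByExpr, and its quasi-likelihood test was run for 5 comparisons. Tests were 2-sided, p-values were adjusted by Benjamini-Hochberg over all 14435 genes tested, with calls made at an adjusted p under 0.05. Levels are TMM-scaled CPM. Log2 differences are FHL2 over control or day 2 over day 0. The procedure was run on simulated counts whose day 2 spread was set below the 0.472 of these libraries. That run therefore does not show how reliable the day 2 calls are here.

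The genes and lists were chosen with earlier results of these data known. Library values are given for genes called between the lines and for up to 3 called genes per role with the largest change between days and a mean of at least 5 CPM. Values of other genes were added after they were seen, and other pathway genes follow the same mean and number per direction. Symbols, GC content, length and exon overlap came from a GRCm38 annotation matched by gene identifier. Acvr2a was not the only gene with such overlap. Tgfbr3, Smad5 and Smurf2 share 297, 100 and 58 exonic bases with another gene on the same strand. Several other genes overlap a gene on the opposite strand, among them Fstl3, which shares 1157 bases with Prss57. Alternatives were RLE and upper-quartile scaling, 2 other filters, DESeq2 1.42.0, limma 3.58.1 (voom), a fit restricted to the 2 groups compared, replicate number as a block, each library left out, the 3 day 2 libraries of fewest genes left out, and correction for GC content with and without length. Limits from counts of 0 cover counting error only.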

Additional observations from a re-analysis of the deposited data

How the results depend on the processing

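The day 2 calls of Grem1 and Id2 held their direction in all alternatives and their call in all but the fit of only the 6 day 2 libraries, which called 0 higher and 0 lower. Among these alternatives, the fit without the 3 libraries of fewest genes left FHL2 with 1 library at day 2. At day 2 the number called lower, 1 as reported, was 3 without a filter, 2 with DESeq2 and 3 without the 3 libraries of fewest genes, where 2 were called higher. These settings called 3.51%, 6.91% and 10.1% of all genes, against 2.07% as reported, and the fit of the 6 libraries called 0.304%. Leaving out 1 library each gave 1 to 2 lower. At day 0, where none was called, 1 was called higher without a filter, with DESeq2, with correction for GC content and length, and without the 3 libraries of fewest genes, and 3 with only the 6 day 0 libraries. There 1 was called lower without a filter, with DESeq2, with limma-voom, with only the 6 day 0 libraries and without the 3 libraries of fewest genes. At day 0 these settings called 0.286% (no filter), 0.61% (DESeq2), 0.18% (GC content and length), 0.125% (limma-voom), 0.845% (without the 3 libraries) and 1.75% (only the 6 libraries) of all genes, against 0.0485% as reported. Without the 3 libraries 1 interaction was also called lower, where 1.52% of all genes passed. Of the calls between days, 13 of 24 in FHL2 and 13 of 26 in control held in every alternative run. The same share over all genes was not computed.

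Among the changes called between days, and for Fst in control, directions turned with correction for base composition only. With GC content, the FHL2 changes became 0.29 for Fst, -0.32 for Bmp1, -0.23 for Smad3, -0.40 for Smurf1 and -0.33 for Id1. With length added they were 0.12 for Fst, -0.00090 for Bmp1, 0.19 for Bmpr2, -0.10 for Smurf1 and -0.63 for Id1. In control, GC content gave 0.56 for Fst, -0.32 for Bmp1, -0.15 for Smad3, 0.16 for Smad5 and -0.48 for Smurf1. With length added they were 0.44 for Fst, -0.080 for Bmp1, 0.39 for Smad5, -0.24 for Smurf1 and -0.054 for Id1. The cause was not tested.

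Same-numbered libraries did not deviate together throughout (r from -0.127 to 0.268, and not every library correlated best with its own number), so the numbers were not taken as pairs. With the replicate number as a block, 9 genes rather than 11 rose in control, without Smurf1 (0.34, adjusted p = 0.05002) and Id4 (0.57, adjusted p = 0.0664), and no other call of the 37 genes changed. Depth limits Bmp2, Nog, Bmp4, Fstl3, Chrd and Acvr2b.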
